A study of Mus musculus with 4 samples.

Results

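The difference between 2 knockdown lines raised against the same mRNA was described over all 4 arrays of the series. Each array compared a knockdown line with cells that carried the empty vector. The contrast was the mean of the 2 siSelT-1 arrays minus the mean of the 2 siSelT-5 arrays, taken on the 7038 of 22534 probes that had a value on every array. The vector and the dye enter both sides of this contrast. These probes gave 4754 genes with a single gene name, all of which were tested.

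All cells were NIH 3T3, an established mouse fibroblast line. The siSelT-1 line was stably transfected with the pU6-m3 plasmid carrying a sequence from nucleotides 205 to 224 of the Selt mRNA. The siSelT-5 line carried a sequence from nucleotides 971 to 989 of that mRNA in the same plasmid, and the control line carried pU6-m3 alone. Lines of all 3 kinds were kept under 150 µg/ml hygromycin B in 10% serum with 100 nM sodium selenite. Knockdown RNA was labelled with Cy5 and vector RNA with Cy3. Replicates were described as separate cultures taken at different times. Whether a line was 1 clone or a pool, and whether arrays shared vector RNA, is not given in the sources used here, so construct and line cannot be told apart, and how much of the spread of the vector cells enters the tests is not known.

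Selt, now named Selenot, encodes selenoprotein T, a membrane protein of the endoplasmic reticulum with a thioredoxin-like fold and a selenocysteine in its active site. In RNA interference, a short hairpin transcribed from a U6 promoter is cut by Dicer into a small interfering RNA, which guides an Argonaute protein to a matching mRNA. Constructs against separate stretches of 1 mRNA share the intended target and carry different guides, so other mRNAs that a guide pairs with in part can differ between them. Selenot itself had no named probe on the array, and the knockdown could therefore not be measured in any sample.

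A value above 0 below means a higher ratio of knockdown to vector than the median gene of that array. Values are log ratios read as log2, centred on the median of the shared probes and scaled so that the 4 arrays have the same median absolute deviation. A difference is siSelT-1 minus siSelT-5 on that scale. Because of the scaling it is not itself a ratio of the lines, and folds are therefore given from the values that were centred only. A ratio deposited the other way round, as vector over knockdown, would turn every direction.

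Few genes passed the adjusted threshold with 2 arrays per construct. Of 4754 genes, 7 were higher in siSelT-1 (0.147%) and 8 were lower (0.168%), 15 in all (0.316%), by limma at a Benjamini-Hochberg adjusted p under 0.05. On the scaled values the largest differences among them were those of Speer4b, Cbr3 and Dop1b on the higher side. On the lower side they were those of the growth factor Igf2, the matrix gene Postn and the transcript B230206H07Rik. That order rests on the scaling. After centring alone Gm2a (1.75), Clcn2 (1.69) and Cfap298 (1.62) lay above Cbr3 (1.26) and Dop1b (1.24). Likewise A630052E07Rik (-1.69) and Tmem242 (-1.54) then lay below B230206H07Rik (-1.37). The siSelT-1 and siSelT-5 values did not overlap in any of the 15. Over all genes the siSelT-1 pair lay wholly above the siSelT-5 pair in 27.8% and wholly below it in 30.1%.

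The adjusted threshold sat in a dense part of the list. A further 58 genes had an adjusted p between 0.05 and 0.055, the lowest of them 0.0506, and 427 genes were under 0.10. At an unadjusted p under 0.05, 621 genes (13.1%) were higher and 603 (12.7%) were lower. The median standard error of a difference was 0.16, and the 95% interval reached a median of 0.39 to either side of the difference. The smallest difference that passed was 1.17 in size.

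The siSelT-5 arrays differed more from each other than the siSelT-1 arrays did. The standard deviation between replicates, as a root mean square over genes, came to 0.19 between the siSelT-1 arrays, against 0.27 between the siSelT-5 arrays, or 0.15 and 0.34 after centring alone. Leaving out siSelT-1 replicate 1 or replicate 2 left 0 genes past the adjusted threshold in limma, with 586 and 686 at an unadjusted p under 0.05. Leaving out siSelT-5 replicate 1 or replicate 2 gave 856 and 825. Values without scaling gave 1 higher and 2 lower gene, namely Speer4b, Igf2 and Postn, and quantile normalization gave 4 higher and 8 lower. Centring each array on all of its own values moved the median difference to -0.59 and gave 39 higher and 2473 lower. The arrays of siSelT-1 held values for 7689 and 9232 probes and those of siSelT-5 for 20268 and 18361, so those centres rest on different probes, and the directions below are relative to the shared probes.

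**Figure D1:**
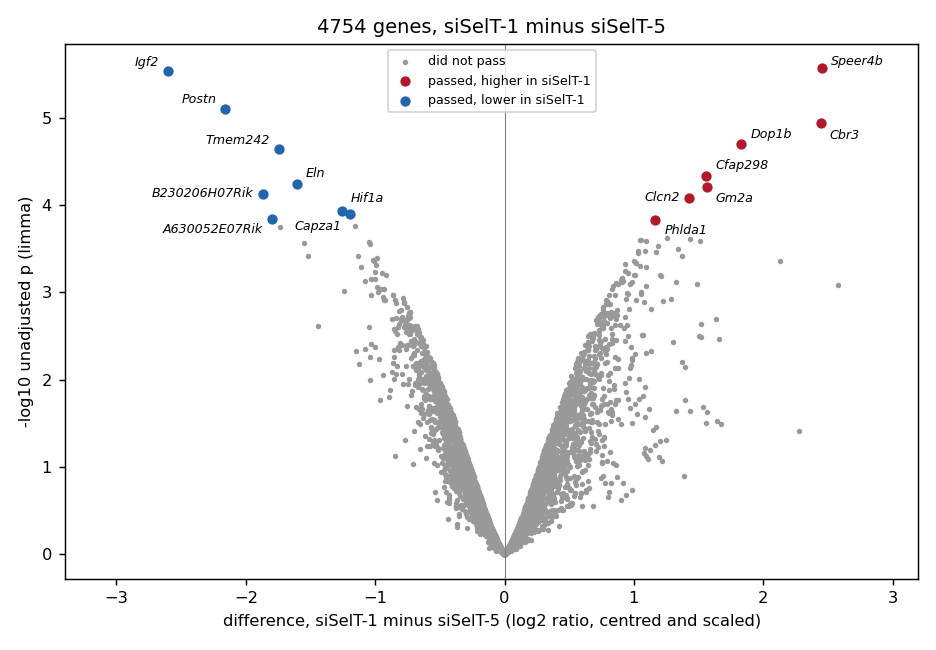
Each point is 1 of 4754 genes, with the difference siSelT-1 minus siSelT-5 on the horizontal axis (log2 ratio, centred and scaled) and -log10 of limma's unadjusted p on the vertical axis. The 7 red and 8 blue genes passed at an adjusted p under 0.05, and many grey genes lie just under them.

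Speer4b belongs to a multigene family of glutamate-rich proteins known from spermatogenesis. Its values were 1.96 and 2.15 with siSelT-1 and -0.43 and -0.36 with siSelT-5. The groups lay far apart, with both siSelT-5 values under the median gene. The difference was 2.45 ± 0.15 (SE, n = 2 arrays per construct; adjusted p = 0.00707), and the centred values gave a level 4.37-fold higher in siSelT-1. Members of this family on chromosome 5 are close copies, so the probe may not tell them apart.

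Cbr3, a carbonyl reductase that uses NADPH, stood at 3.67 and 3.98 with siSelT-1 and at 1.22 and 1.55 with siSelT-5. It was above the median gene on every array, and further above it in siSelT-1. The difference was 2.44 ± 0.19 (SE; adjusted p = 0.0138), 2.39-fold after centring alone, where it did not pass (adjusted p = 0.106). Under quantile normalization the difference was 0.35 (adjusted p = 0.404), so its size and its call depended on how the arrays were scaled.

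Dop1b, a member of a family that acts in membrane traffic, is the neighbour of Cbr3 among the tested genes of chromosome 16. Its values were 2.13 and 2.39 with siSelT-1 and 0.44 and 0.42 with siSelT-5. Both siSelT-1 values were higher, by 1.83 ± 0.15 (SE; adjusted p = 0.0182). After centring alone the level was 2.37-fold higher, and Dop1b did not pass (adjusted p = 0.0755). A second probe for it had values on 3 arrays only and gave a difference of 1.73.

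The promoters of these 2 neighbours are shown because both genes passed in the same direction, and that of Postn because it was the lower gene measured with more than 1 probe. Each is the plus strand of the 150 bases before a start of the gene in RefSeq (GRCm38.p6). The windows are chr16:93683069-93683218 for Cbr3, chr16:93711757-93711906 for Dop1b and chr3:54360957-54361106 for Postn. For Cbr3 and Dop1b the start was the first listed along the chromosome. For Postn a later listed start was taken, and its first is not shown. Capitals mark 3 motifs searched on both strands: the antioxidant response element TGACNNNGC, the GC box GGGCGG and the TATA box TATAAA.
Cbr3: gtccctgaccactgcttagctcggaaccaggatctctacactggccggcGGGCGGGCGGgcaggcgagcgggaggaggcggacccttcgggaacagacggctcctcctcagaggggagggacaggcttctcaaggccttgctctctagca
Dop1b: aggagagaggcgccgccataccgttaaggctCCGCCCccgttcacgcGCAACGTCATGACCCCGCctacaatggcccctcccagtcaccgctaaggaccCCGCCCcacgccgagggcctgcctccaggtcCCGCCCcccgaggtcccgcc
Postn: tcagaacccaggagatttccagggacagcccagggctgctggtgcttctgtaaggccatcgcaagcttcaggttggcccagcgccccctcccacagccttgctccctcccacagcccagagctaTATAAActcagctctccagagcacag

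Cbr3 held a pair of overlapping GC boxes, 101 and 97 bases before the start. Dop1b held 3 GC boxes, at 119, 51 and 20 bases, and antioxidant response elements at 103 bases on the minus strand and 94 bases on the plus strand, side by side. Postn held a TATA box 26 bases before the start taken for it. Of 32851 promoter windows of this length, 28.6% held a GC box, 6.8% an antioxidant response element and 7.57% a TATA box. These are matches of letters, and no binding was measured.

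Cfap298, a protein of cilia and flagella, and the chloride channel gene Clcn2 also lie on chromosome 16. Cfap298 was 0.74 and 0.82 with siSelT-1 and -0.67 and -0.89 with siSelT-5, a difference of 1.56 ± 0.15 (SE; adjusted p = 0.0317; 3.07-fold after centring). Clcn2 was 0.38 and 0.13 against -1.16 and -1.19, a difference of 1.43 (adjusted p = 0.0358; 3.23-fold). Both were above the median gene in siSelT-1 and below it in siSelT-5. Neither passed after centring alone (adjusted p = 0.0755 for each).

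Gm2a, which encodes the GM2 ganglioside activator of the lysosome, was 0.50 and 0.40 with siSelT-1 and -1.25 and -0.97 with siSelT-5. It passed at a difference of 1.56 (adjusted p = 0.0331; 3.37-fold after centring). Phlda1, a pleckstrin homology-like gene induced by serum, was 1.07 and 0.97 against -0.13 and -0.17, a difference of 1.17 (adjusted p = 0.0468). In siSelT-5 it was close to the median gene, so the separation lay in the siSelT-1 values. After centring alone neither Gm2a (adjusted p = 0.0617) nor Phlda1 (0.0816) passed.

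Igf2, the fetal insulin-like growth factor, had the lowest difference of the 4754 genes. Its values were -2.24 and -1.98 with siSelT-1 and 0.55 and 0.44 with siSelT-5. The groups lay on opposite sides of the median gene. The difference was -2.60 ± 0.16 (SE, n = 2 arrays per construct; adjusted p = 0.00707), and after centring the level was 4.90-fold higher in siSelT-5.

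Postn encodes periostin, a secreted matrix protein of fibroblasts and bone. Averaged over 2 probes, it was -1.14 and -1.19 with siSelT-1 and 1.12 and 0.86 with siSelT-5. Both siSelT-1 values were again below the median gene and both siSelT-5 values above it. The difference was -2.16 ± 0.16 (SE; adjusted p = 0.0125), or 4.49-fold higher in siSelT-5 after centring. The probes pointed the same way, at -1.56 and -2.75.

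Eln, which encodes elastin, differed in another manner, because it was low on every array. Its values were -2.25 and -2.48 with siSelT-1 and -0.86 and -0.65 with siSelT-5, a difference of -1.61 ± 0.16 (SE; adjusted p = 0.0331). Hif1a, the oxygen-regulated subunit of hypoxia-inducible factor 1, was -1.67 and -1.72 against -0.35 and -0.51 (difference -1.26, adjusted p = 0.0463). Capza1, a subunit of the protein that caps actin filaments, was -1.66 and -1.65 against -0.51 and -0.42 (difference -1.19, adjusted p = 0.0463). All of these were below the median gene in both lines, and lower in siSelT-1. Centring alone gave smaller differences of -0.92, -0.78 and -0.73, or 1.90-fold, 1.72-fold and 1.66-fold higher in siSelT-5, and none of them then passed (adjusted p = 0.0932, 0.106 and 0.104).

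Tmem242, a transmembrane protein, was -1.52 and -1.30 with siSelT-1 and 0.36 and 0.31 with siSelT-5 (difference -1.74, adjusted p = 0.0182; 2.91-fold higher in siSelT-5 after centring). B230206H07Rik and A630052E07Rik, known only as transcripts, stood at differences of -1.87 (adjusted p = 0.0355) and -1.79 (adjusted p = 0.0468). Tmem242, B230206H07Rik and A630052E07Rik did not pass after centring alone (adjusted p = 0.0755 for each). Of the 15 genes, 14 were measured by 1 probe, and Postn was the exception.

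**Figure D2:**
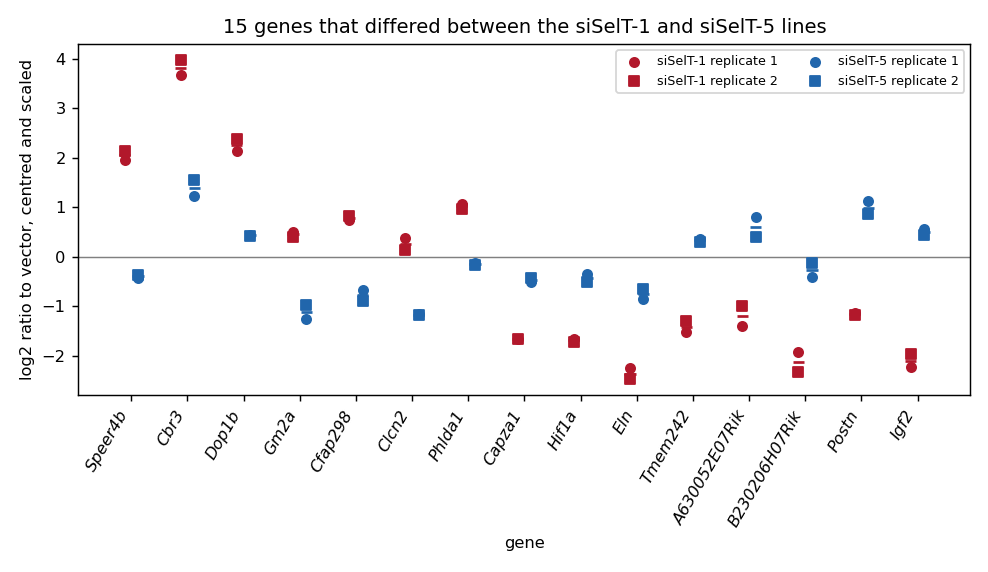
Each point is 1 array's value (log2 ratio of knockdown to vector, centred and scaled) for 1 of the 15 genes that passed, with siSelT-1 and siSelT-5 in different colours and short lines at the mean of each pair. In every gene both siSelT-1 points lie on 1 side of both siSelT-5 points, and Cbr3 is above 0 and Eln, Hif1a and Capza1 are below 0 on all 4 arrays.

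Next in order of unadjusted p, and not past the adjusted threshold, came Ttyh1, a tweety family channel gene, at -1.15 (adjusted p = 0.0506) and the calcium channel subunit gene Cacnb2 at -1.74 (0.0506). On the other side were Rbbp4, a histone-binding protein, at 1.25, Bcl7a at 1.44 and Rida at 1.06 (adjusted p = 0.0511 for each). Rida was the mean of 3 probes. After centring alone Ttyh1 was at -0.52 and Cacnb2 at -1.08.

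Matrix genes included 2 of the 8 that were lower. Of 44 extracellular matrix genes, Postn and Eln passed as lower and 0 passed as higher, while 5 were higher and 9 lower at an unadjusted p under 0.05. These are 11.4% and 20.5% of the list, beside 13.1% and 12.7% of all genes, and the median of the list was 0.05 against -0.0059 over all genes. Dcn, the collagen-binding proteoglycan decorin, was -1.30 and -1.21 with siSelT-1 and -0.19 and -0.24 with siSelT-5 (difference -1.04, adjusted p = 0.0511). In the other direction stood the basement membrane gene Nid1, at 0.84 (adjusted p = 0.0549).

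Among 61 genes of integrins, focal adhesion and actin, limma passed 0, with 4 higher and 17 lower at an unadjusted p under 0.05. That is 6.56% and 27.9% of the list, beside 13.1% and 12.7% of all genes, and its median was -0.15. The myosin light chain gene Myl9 stood at -1.08 and -0.55 with siSelT-1 and 0.58 and 0.82 with siSelT-5, a difference of -1.52 (adjusted p = 0.0517). Actr3, of the Arp2/3 complex that branches actin, was at -0.95 (-0.52 after centring alone), smooth muscle actin Acta2 at -0.95 and cytoplasmic actin Actg1 at -0.79. For each of these 4 genes, taken for their small p, the groups did not overlap, with siSelT-1 below. The same held for 30.1% of all genes, and for 27 of the 61 in this list.

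Of 19 matrix proteases and their inhibitors, 0 passed in limma, and 6 (31.6%) were higher and 0 lower at an unadjusted p under 0.05, beside 13.1% and 12.7% of all genes. Their median was 0.22 on the scaled values and 0.10 after centring alone. The sheddase gene Adam17 was at 0.72, Adam15 at 0.48, the membrane-bound collagenase Mmp14 at 0.49 and the plasminogen activator Plat at 0.49. Of 16 collagen processing genes, 2 were higher and 2 lower by that measure, and none passed. Plod2, which hydroxylates collagen lysines, was at 0.63 and Colgalt1, which glycosylates them, at -0.55.

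Markers of other cell types were looked at beside these lists. Of 12 fibroblast markers, 1 passed as lower (Postn), and 0 were higher and 4 (33.3%) lower at an unadjusted p under 0.05, the others being Dcn, Ddr2 (-0.73) and Col3a1 (-0.67, or -0.32 after centring alone). Of the 12, 6 were positive and 6 negative, with a median of -0.04, and 4 lay wholly above and 6 wholly below. Over all genes 27.8% lay wholly above and 30.1% wholly below, and 13.1% were higher and 12.7% lower at an unadjusted p under 0.05. Of 5 myofibroblast and smooth muscle markers, 0 passed and 3 were lower by that measure, Myl9, Acta2 and Tpm2 (-0.53). Endothelial markers gave 2 of 4 higher, Pecam1 at 0.83 and Tie1 at 0.67 (0.42 after centring alone). Bone and cartilage markers gave Bglap (0.71) and Sox9 (-0.41) of 3, adipocyte markers Scd1 (0.42, or 0.20 after centring alone) of 2 and neural markers Syp (0.82) of 2, while macrophage and skeletal muscle markers gave 0 of 2 and 0 of 1 and no epithelial marker was tested. The files hold ratios, so no marker's level could be set at 0 or above it, and the fibroblast identity of the lines could not be checked. The part that marker genes have in the list results was not tested.

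Of 13 insulin-like growth factor and imprinted genes, Igf2 was the only one to pass. At an unadjusted p under 0.05, 3 (23.1%) were higher and 3 (23.1%) lower, beside 13.1% and 12.7% of all genes. Igf1, the postnatal growth factor, was 1.12 and 1.25 with siSelT-1 and 0.66 and 0.35 with siSelT-5, a difference of 0.68 (adjusted p = 0.0905) that came to 0.31 after centring alone. The imprinted gene Impact was at -1.05 (adjusted p = 0.0511), the mean of probes at -1.82 and -0.28. The median of the list was 0.07, or 0.23 after centring alone.

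Immediate early genes, which answer serum quickly, had values of both signs. Of 21 tested, Phlda1 passed as higher, and 3 (14.3%) were higher and 6 (28.6%) lower at an unadjusted p under 0.05. The shares of all genes were 13.1% and 12.7%. The transcription factor Egr1 was -1.42 and -1.31 with siSelT-1 and -0.28 and -0.43 with siSelT-5 (difference -1.01, adjusted p = 0.0517, or -0.62 after centring alone). The antiproliferative gene Btg2 was at -0.98. Fosl2, an AP-1 subunit, was at 0.76, the mean of probes at 1.46, 0.40 and 0.43.

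Growth factor receptors and their ligands included a pair of collagen receptors with opposite signs. Ddr1 was 0.96 and 0.82 with siSelT-1 and -0.05 and -0.03 with siSelT-5, a difference of 0.93 (adjusted p = 0.0544). Ddr2 was -0.59 and -0.61 against 0.23 and 0.04 (-0.73, adjusted p = 0.0671). The epidermal growth factor receptor Egfr and the keratinocyte growth factor Fgf7 were each at 0.73, and after centring alone at 1.17 and 1.18. In the list of 22, 4 (18.2%) were higher and 2 (9.09%) lower at an unadjusted p under 0.05, and limma passed 0. Beside them stand the 13.1% and 12.7% of all genes.

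Targets of NRF2, the transcription factor of the oxidant response, included Cbr3 as their only gene to pass. Of 33 tested, 10 were higher and 1 lower at an unadjusted p under 0.05, beside 13.1% and 12.7% of all genes, and the median was 0.18. Hmox1, heme oxygenase 1, was 1.28 and 1.45 with siSelT-1 and 0.43 and 0.65 with siSelT-5, a difference of 0.83 (adjusted p = 0.0651), or 0.38 after centring alone (adjusted p = 0.254). Mgst1, a microsomal glutathione transferase, was at 1.51, with siSelT-5 values of -0.90 and 0.06 that lay far apart. Gstm1 was at 0.59 on the scaled values, at 0.05 after centring alone and at -0.54 with arrays centred on all their values.

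Selenoproteins, the protein class of the intended target, gave 14 tested genes of 24 listed. None passed in limma, and 4 (28.6%) were higher and 3 (21.4%) lower at an unadjusted p under 0.05, with a median of -0.01. Both shares were above the 13.1% and 12.7% of all genes. The glutathione peroxidase gene Gpx1, whose mRNA depends on selenium supply, was -0.20 and -0.29 with siSelT-1 and 0.30 and 0.27 with siSelT-5, a difference of -0.53 (adjusted p = 0.0993). Selenop, the secreted selenium carrier, was -0.98 and -1.0 against -0.47 and -0.49 (-0.51, adjusted p = 0.102), and after centring alone its difference was -0.18 (adjusted p = 0.448). In both genes the siSelT-1 pair lay below the siSelT-5 pair, as it did in 30.1% of all genes.

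Selenom, a redox protein of the endoplasmic reticulum, was 0.96 and 0.71 with siSelT-1 and 0.35 and -0.42 with siSelT-5, a difference of 0.87 (adjusted p = 0.122). Selenof, of the same compartment, was at -0.41. The thioredoxin reductase gene Txnrd3 was at 0.47, the deiodinase gene Dio2 at 0.42 and Selenow at 0.44. The values of Dio2 and Selenow rest on the scaling, since centring alone gave 0.06 and 0.03, and Selenow was at -0.56 with arrays centred on all their values. Further values were Selenok 0.25 (-0.02 after centring alone and -0.61 with the centring on all values), Selenos -0.25 (-0.13 after centring alone), and Selenon 0.36. Gpx4, Txnrd1, Selenoh and Msrb1 lay between -0.10 and -0.01, and after centring alone Gpx4 was at -0.33 and Selenoh at -0.21. Msrb1, a methionine sulfoxide reductase, was the mean of opposing probes at 0.40 and -0.41. The adjusted p of Txnrd1, the cytosolic thioredoxin reductase, was 0.936 and its siSelT-5 values were -0.21 and 0.36.

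**Figure D3:**
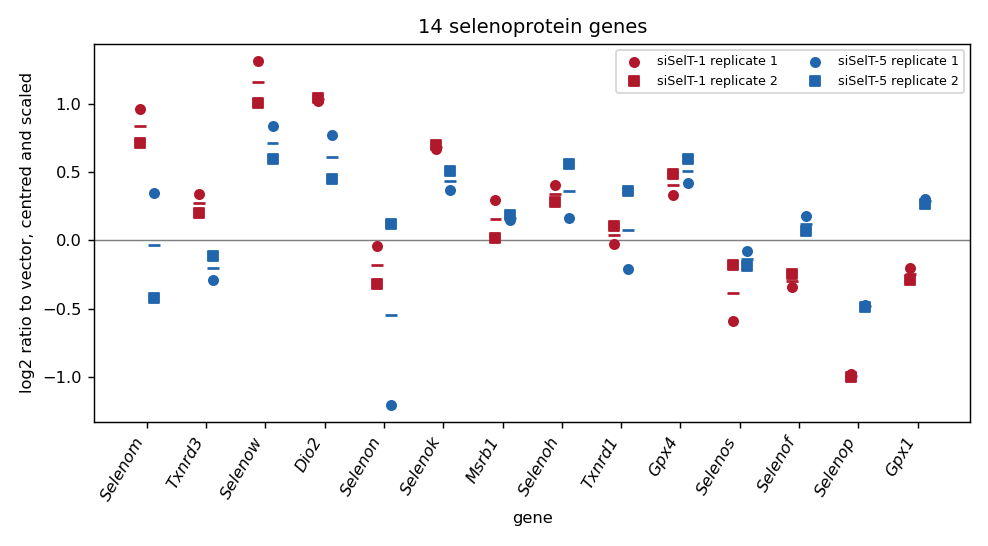
Each point is 1 array's value (log2 ratio of knockdown to vector, centred and scaled) for 1 of 14 selenoprotein genes, with siSelT-1 and siSelT-5 in different colours. None passed the adjusted threshold, and differences ran from -0.53 for Gpx1 to 0.87 for Selenom.

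Of 3 genes known for acting on selenocysteine insertion, Eif4a3 (-0.45), which binds selenoprotein mRNAs and represses their translation, and Rpl30 (-0.46) were lower at an unadjusted p under 0.05 and Trnau1ap (-0.19) was not. Among 32 thioredoxin fold and antioxidant genes, 6 (18.8%) were higher and 2 (6.25%) lower by that measure and 0 passed in limma. Over all genes the shares were 13.1% and 12.7%. The extracellular superoxide dismutase Sod3 was at 0.95 (adjusted p = 0.0544), Txndc9 at 0.75 (0.40 after centring alone) and Txndc11 at 0.96. Other probes of Txndc11, with values on 3 and 2 arrays only, gave -0.07 and 0.95. Of 35 genes of the unfolded protein and integrated stress responses, 1 (2.86%) was higher and 7 (20%) lower. Derl2, which acts in the disposal of misfolded proteins, was at -0.79, the transcription factor Atf4 at -0.46, the seryl-tRNA synthetase Sars at -0.46 and the amino acid transporter Slc7a5 at 0.68.

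No difference in the RNA interference genes was detectable at this precision. Of 9 tested, limma passed 0, and 0 had an unadjusted p under 0.05. Their differences with the smallest p were Tnrc6a -0.39 (the mean of probes at 0.06, -0.30 and -0.91), Snd1 0.36, Prkra 0.36 and Ago3 -0.18. Of 15 interferon response genes, which double-stranded RNA can induce, 2 (13.3%) were higher and 1 (6.67%) lower at an unadjusted p under 0.05. They were Bst2 (0.73), H2-D1 (0.34) and Ifi27 (-0.46), and 0 passed. The shares of all genes were 13.1% and 12.7%.

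Of 76 listed genes of replication and mitosis, 69 were on the array and 16 were tested. Of these 16, 0 were higher and 6 (37.5%) lower at an unadjusted p under 0.05, beside 13.1% and 12.7% of all genes. In limma 0 passed, and the median was -0.25, or -0.16 after centring alone. Mcm4, a helicase subunit, was -0.32 and -0.16 with siSelT-1 and 0.81 and 0.69 with siSelT-5 (-1.0, adjusted p = 0.0526). The microtubule regulator Stmn1 was at -1.24, the polymerase clamp gene Pcna at -0.70 and the mitotic gene Cdc20 at -1.15. A second Cdc20 probe, with values on 3 arrays only, gave -0.29. The siSelT-1 pair lay below the siSelT-5 pair in 9 of the 16, beside 30.1% of all genes.

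Histone genes, whose mRNAs are made in S phase, were listed under their current symbols after their values had been seen, because the planned list, with 11 tested, 2 higher and 3 lower at an unadjusted p under 0.05, had missed most of them. Of 21 clustered histone genes, 2 were higher and 10 lower at an unadjusted p under 0.05, beside 13.1% and 12.7% of all genes. In limma 0 passed, and the median was -0.34. All 15 genes of H2A and H2B were negative, from -0.92 for H2ac12 to -0.17. In 13 of them the siSelT-1 pair lay wholly below, beside 30.1% of all genes. H2ac12 was -0.26 and 0.02 with siSelT-1 and 0.87 and 0.74 with siSelT-5. H3 and H4 genes were mixed, with H3c2 at 0.99, H4c14 at 1.32 and H3c6 at -0.48. Copies within the cluster are nearly identical, so their probes may report on each other's mRNA and they are not separate measurements.

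Large housekeeping groups were compared with the 13.1% higher and 12.7% lower of all genes. Of 66 oxidative phosphorylation genes, 0 were higher and 16 (24.2%) lower at an unadjusted p under 0.05, with a median of -0.16 (-0.28 after centring alone) and examples in Ndufb8 (-0.60), Cox5b (-0.58), Ndufa4 (-0.58) and Atp5e (-0.60). Of 29 proteasome subunits, 0 were higher and 6 (20.7%) lower, with Psmd14 at -0.66 and Psmd11 at -0.74 (-0.38 after centring alone). Of 60 splicing and RNA-binding genes, 3 were higher and 15 (25%) lower, with Ewsr1 at -1.55 (-0.97 after centring alone), Rbm3 at -0.81 and Hnrnpu at -0.75. Limma passed 0 genes in each of these groups. Cytosolic ribosomal protein genes gave 0 and 4 of 45 and mitochondrial ones 1 and 2 of 58. Both had smaller shares than the 13.1% and 12.7% of all genes. Of the 45 cytosolic ones 31 were negative, with a median of -0.11 that came to -0.37 after centring alone. Their siSelT-1 pair lay wholly below in 19 and wholly above in 5, beside 30.1% and 27.8% of all genes.

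Of 24 G protein signalling genes, 7 (29.2%) were higher and 1 (4.17%) lower at an unadjusted p under 0.05, beside 13.1% and 12.7% of all genes, and 0 passed in limma. Gnai1, an inhibitory subunit, was low in both lines, at -1.21 and -0.99 with siSelT-1 and -1.97 and -1.59 with siSelT-5 (0.68, adjusted p = 0.104, or 1.36 after centring alone). The protein kinase A genes Prkar2b and Prkacb were at 0.67 and 0.43, and the phosphodiesterase Pde4a at 0.61 (1.02 after centring alone). In the glycolysis and hypoxia list of 21, Hif1a passed as lower, while 3 genes (14.3%) were higher and 1 lower at an unadjusted p under 0.05. The 3 higher ones were P4ha1 (0.69), Bnip3l (0.62) and Pdk1 (0.36), and 6 of the 21 were negative. The median was 0.11, or 0.01 after centring alone.

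In the lists that remain, limma passed 0 genes. In the TGF-beta and BMP list of 21, 1 gene was higher and 3 lower at an unadjusted p under 0.05, with Tgfb1 at 0.96, Fstl1 at -0.96, Smad5 at -0.62 and Bmpr1a at -0.54 (-0.33 after centring alone). Chemokines, cytokines and their receptors gave 5 higher (29.4%) and 5 lower (29.4%) of 17, both above the 13.1% and 12.7% of all genes, among them Cx3cl1 (0.79), Cxcl5 (0.73), Tnfrsf12a (-0.63) and Il6ra (-0.57). Of 22 p53 targets and growth arrest genes, 3 (13.6%) were higher and 6 (27.3%) lower. The death receptor gene Tnfrsf10b, at 1.29, was the mean of opposing probes at 2.78 and -0.19, while Pmp22 was at -0.63. Cell junction and adhesion genes gave 5 and 3 of 20, cholesterol and lipid genes 3 and 0 of 15, calcium genes 3 and 5 of 33, and solute carriers 7 and 3 of 56.

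**Figure D4:**
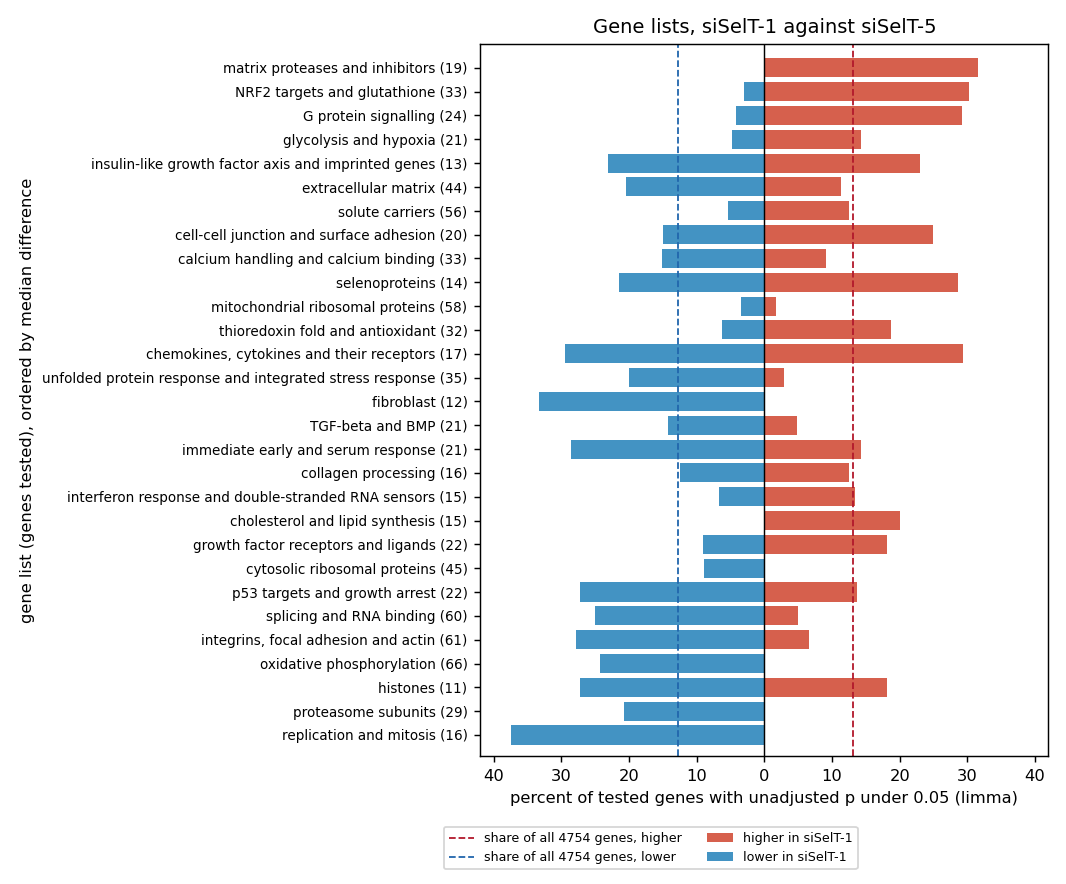
Bars give the percent of the tested genes of each list with limma's unadjusted p under 0.05, higher in siSelT-1 to the right and lower to the left, and dashed lines give the 13.1% and 12.7% of all 4754 genes. The matrix protease, NRF2 and G protein lists have long bars to the right and little or nothing to the left, and the replication, proteasome and oxidative phosphorylation lists have bars on the left only.

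Along the genome, 4 of the 7 higher genes lay on chromosome 16. That chromosome had 173 tested genes, of which 48 (27.7%) were higher and 15 (8.67%) lower at an unadjusted p under 0.05, beside 13.1% and 12.7% of all genes. Its median difference was 0.11, or 0.10 without the genes that passed. On chromosome 17, where no higher gene passed, 44 of 258 were higher and 16 lower, with a median of 0.11. Chromosome 13 had the lowest median, -0.15, with 9 of 149 higher and 26 lower, and without the clustered histone genes it was -0.10.

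Runs of 15 neighbouring tested genes placed the chromosome 16 values more closely. Of 4461 runs, the highest non-overlapping one ran from Atp5o to Get1 on chromosome 16, where all 15 genes were positive, with a median of 0.73, or 0.53 after centring alone. Over all runs the medians had a 5th percentile of -0.20 and a 95th of 0.22. In this run the median gene of each array stood at 0.90 and 0.77 with siSelT-1 and at 0.30 and 0.42 with siSelT-5, so it was above the array's median gene in both lines. It held Cbr3 and Dop1b, and 12 of its genes were higher at an unadjusted p under 0.05, beside 13.1% of all genes. The run was picked by its median in these same data, so this count is no separate support.

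Other genes in that run did not pass, with Morc3 at 1.03 (adjusted p = 0.0517) and Get1, which inserts tail-anchored proteins into membranes, at 1.00 (0.0544). The next run on that chromosome, from Usp25 to Tmem50b, was separated from it by Gart (0.64) and Son (-0.51). It had a median of 0.47 (0.26 after centring alone), 12 positive genes of 15 and 1 gene that passed, Cfap298. Tiam1, an activator of Rac1, was at 1.33 there and the superoxide dismutase gene Sod1 at 0.47. Sod1 was at 0.04 after centring alone and -0.55 with arrays centred on all their values. Clcn2 lay in neither run. The second highest run was on chromosome 7, from Ppp5c to Clasrp, with a median of 0.49 and 10 positive genes.

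The lowest run was the histone cluster of chromosome 13, from Zkscan3 to H2bc4, where 0 of 15 genes were positive and the median was -0.39. In it 8 genes were lower at an unadjusted p under 0.05, beside 12.7% of all genes. This run too was picked by its median. Its median gene stood at 0.17 and 0.30 with siSelT-1 and at 0.84 and 0.62 with siSelT-5. The next lowest were Prxl2c to Cetn3 on chromosome 13 (-0.37) and Poldip2 to Slfn1 on chromosome 11 (-0.35), with 11 negative genes each.

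**Figure D5:**
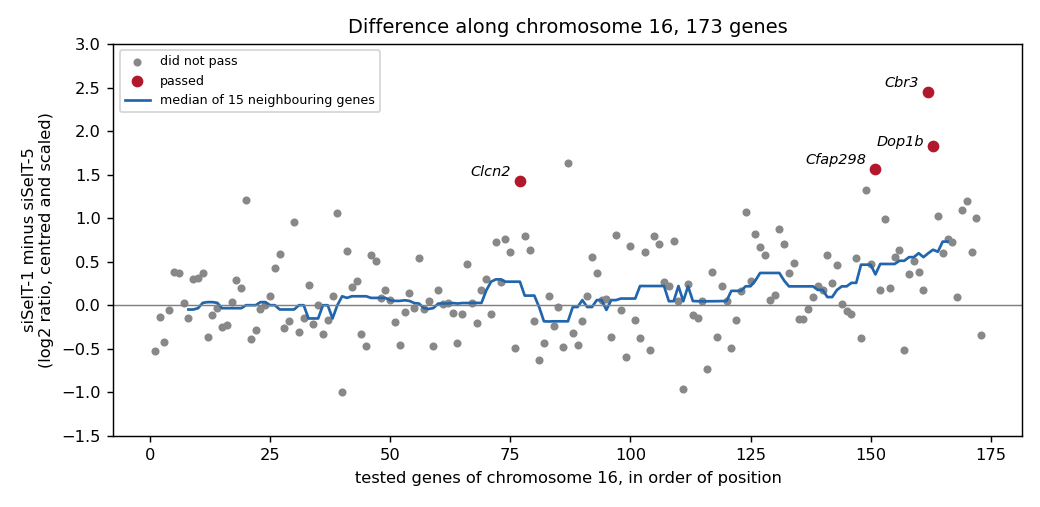
Each point is 1 of 173 tested genes of chromosome 16 in order of position, with its difference siSelT-1 minus siSelT-5 (log2 ratio, centred and scaled) on the vertical axis, and the line is the median of 15 neighbours. Cfap298, Cbr3 and Dop1b passed towards the right end, where the line reaches 0.73, and Clcn2 passed near the middle.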

How the data were processed

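Gene expression was measured on 4 2-colour oligonucleotide arrays, 2 per construct. The deposited values are log ratios, read here as log2 because the labels give no base; per the labels, Cy5 held knockdown and Cy3 vector RNA. Background correction, normalization and the filter behind missing values are not given in the sources used here. Of 22534 probes, 18129 carried 1 gene name (18041 matched to RefSeq by Entrez identifier), 140 several and 4265 none. Columns of other samples numbered 0.

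Each array was centred on the median of the 7038 shared probes, divided by their median absolute deviation and multiplied by the geometric mean of the 4 deviations. A gene was the mean of its single-name probes (3796 genes with 1 probe, 958 with more). limma 3.58.1 in R 4.3.3 (lmFit, eBayes, statmod 1.5.0) gave two-sided tests with 2 residual degrees of freedom, adjusted by Benjamini-Hochberg over 4754 genes. The p-values measure the spread between these arrays, whose number limits precision. The limma step alone was tested on simulated gene values, so that test did not cover the scaling, the centring or the missing values.

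Named genes were those that passed without overlap (up to 15 a side, filled to 10 by unadjusted p; only the first few are printed), every measured selenoprotein, up to 4 genes of each list by unadjusted p, and genes of the outermost runs. Any other gene was picked with its value in view. The members and lists were chosen with earlier results of these data known. Lists were described by counts and medians, without a test. Their shares are of the tested genes only, those with a value on all 4 arrays. Alternatives covered scaling, centring, probes, missing values, variance models, a replicate block and each array left out.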

Additional observations from a re-analysis of the deposited data

Results flagged for a closer look

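The 15 genes below differed between the constructs in limma's test of the difference, with both siSelT-1 values on 1 side of both siSelT-5 values. Differences (siSelT-1 minus siSelT-5, centred and scaled log2) were 2.45 for Speer4b, 2.44 for Cbr3, 1.83 for Dop1b, 1.56 for Cfap298, 1.56 for Gm2a, 1.43 for Clcn2 and 1.17 for Phlda1. On the lower side they were -2.60 for Igf2, -2.16 for Postn, -1.87 for B230206H07Rik, -1.79 for A630052E07Rik, -1.74 for Tmem242, -1.61 for Eln, -1.26 for Hif1a and -1.19 for Capza1. Groups of 2 arrays were too small for a test of single outlying samples.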

How the results depend on the processing

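Counts of genes that passed, 7 higher and 8 lower, moved with the processing. Values centred without scaling and values as deposited each gave 1 and 2, quantile normalization 4 and 8, a value on at least 1 array of each construct 4 and 6 of 6024 genes, and robust eBayes 7 and 8. Centring on all values gave 39 and 2473, with a median difference of -0.59, and the deposited values had a median of -0.26. Single probes gave 74 and 56 of 6251, all probes 95 and 68 of 7038, genes with at least 2 probes 60 and 103 of 958, array weights by construct 46 and 29, and an adjusted p under 0.10 gave 225 and 202. Leaving out each array in turn gave 0 to 511 higher and 0 to 349 lower; an array left alone was assumed to vary like the other construct.

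Replicate numbers were not said to mark a shared culture, batch or day. The deviations of same-numbered arrays correlated at 0.07 across genes. With the number as a replicate block, 187 and 117 genes passed, and the 15 were among them. None of the 15 changed sign under any alternative that measured it. They stayed past the threshold under robust eBayes, array weights, the block and with either siSelT-5 array left out; 12 were lost without scaling, 12 with values as deposited, 10 with a value on 1 array of each construct, 4 under quantile normalization, 2 under centring on all values and 15 without either siSelT-1 array. Of the other genes named by the rule, 5 turned to pass in the opposite direction, each under centring on all values. They were Gstm1 (-0.54), Sod1 (-0.55), Selenow (-0.56), Lpl (-0.44) and Selenok (-0.61). A further 31 changed sign under that centring, and 11 with values as deposited, without passing either way. Of 38 list medians, 12 changed sign with centring on all values, 9 with values as deposited, 5 without scaling, 0 under quantile normalization and 3 to 7 with 1 array left out. The cause of these changes was not tested. Without array intensities, signal over background was not analysed here.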
